A study of Rattus norvegicus with 18 samples.

Results

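The 9 genes described here encode the carnitine shuttle and the steps of mitochondrial β-oxidation other than the acyl-CoA dehydrogenases. They are Cpt1a, Slc25a20, Cpt2, Hadha, Hadhb, Echs1, Hadh, Acaa2 and Etfdh, taken by symbol from the deposited expression table. All 9 were among its 13188 genes.

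Long-chain fatty acids enter mitochondria only as carnitine esters. CPT1A, on the outer membrane, joins the acyl group to carnitine and is the controlled step, SLC25A20 carries the acylcarnitine across the inner membrane, and CPT2 returns the acyl group to coenzyme A. In the matrix an acyl-CoA dehydrogenase starts each round of β-oxidation. HADHA and HADHB, the subunits of the membrane-bound trifunctional protein, then carry out hydration, oxidation and thiolytic cleavage on long chains, and the soluble enzymes ECHS1, HADH and ACAA2 do the same on shorter ones. ETFDH passes the electrons of the dehydrogenases from the electron-transferring flavoprotein to ubiquinone. Fibroblasts carry this pathway but rely on it less than heart, muscle or liver.

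RNA-seq had been performed on Rat1 fibroblasts of the line HO15.19, a rat line without functional endogenous myc (myc-/-), in 18 libraries of 6 groups with 3 each. The groups were myc-/- cells, myc-/- + MYC cells, myc-/- siCtrl cells, and myc-/- + MYC cells given siCtrl, siAHR-2 or siAHR-5. MYC is human and was expressed stably from a retroviral vector, siCtrl is a control siRNA, and siAHR-2 and siAHR-5 are siRNAs against the aryl hydrocarbon receptor (AHR). Transfected cells had received 40 nM siRNA and were harvested after 48 h, and all cells grew in 10% serum. All groups come from this 1 line, each reconstituted line is a stable population under an exogenous promoter, and nothing in the labels says that the 3 libraries of a group came from separate cultures, so the p-values measure only the spread between libraries.

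The deposited values are normalized expression on a log2 scale, and all levels and log2FC below are on this scale. Folds below are these log2FC taken off the log scale, and whether they equal folds in mRNA is unknown. The libraries fall into sets on different scales, the 6-library set (myc-/- siCtrl and myc-/- + MYC, named set of 6 in the plots) with library medians of at most 11.05 and the 12-library set (the other groups, named set of 12) with medians of at least 11.61. The sets were treated as normalized separately, which the sources used here do not state, and groups were compared only within a set. For MYC, the 6-library set sets myc-/- + MYC cells beside myc-/- siCtrl cells, and the 12-library set sets myc-/- + MYC siCtrl cells beside myc-/- cells. In both, MYC and the transfection label change together and cannot be told apart. A gene was called when it differed at least 1.5-fold between the groups, in either direction, with a limma adjusted p of at most 0.01. Library depth is unknown. Ahr mRNA was lower with siAHR-2 (log2FC −1.29, limma adjusted p = 2.37e-04) and siAHR-5 (−1.39, limma adjusted p = 2.16e-04), both called. With the replicate block the adjusted p of Ahr were 0.0126 and 0.00474, so that the call with siAHR-2 was lost there. After quantile normalization or median centring they were at most 1.33e-05. Rat Myc gave signal in all groups and ran opposite to the MYC label. In the 6-library set its mean was 9.31 without MYC and 8.04 with it (log2FC −1.26), and in the 12-library set 10.89 and 8.21 (log2FC −2.68), both called lower. The human transgene was not analysed here, so the MYC labels were not checked by expression. All 11 fibroblast markers sought were in the table. Their levels differed widely. The lowest group means were 18.34 for Vim, 17.70 for Fn1 and 14.93 for Col1a1, whereas Col1a2 lay between 3.64 and 4.08 in all groups. In the 12-library set, Lum (group means of 5.84 to 6.78) and Dcn (6.76 to 7.67) also lay far below the library medians. What value stands for no reads differs between genes and is unknown.

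Promoter sequence, the 250 bases before the RefSeq gene start in the GRCr8 assembly, was found for 8 of the 9 genes. The windows of Cpt1a, Hadha, Hadh and Etfdh are printed because the results turn on these genes: Cpt1a was lower with MYC, Hadh and Etfdh rose, and Hadha and Hadhb start next to each other. Capitals mark GCGTG, or CACGC where it lies on the other strand, the core of the element bound by AHR, except in Hadha, where they mark the part shared with the Hadhb window. The windows lie at chr1:209995910-209996159 (plus strand), chr6:31907551-31907800 (plus), chr2:222504447-222504696 (minus) and chr2:167060759-167061008 (minus) and are written 5′ to 3′ on the strand of the gene.
Cpt1a: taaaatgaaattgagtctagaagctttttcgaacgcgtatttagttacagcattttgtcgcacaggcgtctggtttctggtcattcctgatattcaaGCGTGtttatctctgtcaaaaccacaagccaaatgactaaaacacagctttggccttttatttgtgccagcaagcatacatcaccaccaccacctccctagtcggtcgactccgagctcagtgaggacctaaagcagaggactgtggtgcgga
Hadha: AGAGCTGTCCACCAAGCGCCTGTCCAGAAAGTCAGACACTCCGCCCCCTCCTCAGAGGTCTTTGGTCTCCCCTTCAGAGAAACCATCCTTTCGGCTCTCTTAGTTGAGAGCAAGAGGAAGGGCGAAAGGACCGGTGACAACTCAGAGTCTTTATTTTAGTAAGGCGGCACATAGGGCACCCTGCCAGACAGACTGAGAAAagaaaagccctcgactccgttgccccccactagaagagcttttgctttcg
Hadh: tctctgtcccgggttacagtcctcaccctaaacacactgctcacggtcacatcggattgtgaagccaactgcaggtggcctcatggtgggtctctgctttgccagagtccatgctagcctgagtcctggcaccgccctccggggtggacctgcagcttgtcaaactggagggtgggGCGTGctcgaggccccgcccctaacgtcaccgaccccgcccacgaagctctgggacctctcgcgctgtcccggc
Etfdh: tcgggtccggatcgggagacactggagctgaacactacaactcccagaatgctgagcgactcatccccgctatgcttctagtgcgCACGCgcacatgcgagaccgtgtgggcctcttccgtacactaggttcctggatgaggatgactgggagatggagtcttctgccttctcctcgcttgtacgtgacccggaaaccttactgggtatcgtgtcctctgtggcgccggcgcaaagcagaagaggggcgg

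Hadha and Hadhb are transcribed away from each other from starts with 300 bases between them, and 200 of the 250 bases printed for Hadha also lie in the Hadhb window on the other strand. The E-box CACGTG, a motif bound by MYC with its partner MAX, was in 0 of the 8 windows, and 5.59% of all 33465 promoter windows of this length held it. GCGTG, searched on both strands, was in 4 windows (Cpt1a, Cpt2, Hadh and Etfdh), against 25.9% of all windows. CTTTGA, the core of the motif bound by LEF/TCF factors, was in 1 window (Echs1), against 13.9% of all. The direct repeat bound by PPAR receptors with their partner RXR was in 0, against 0.0508% of all. None of these matches overlapped a match of another motif.

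With MYC, the genes did not move as a block. Hadh and Etfdh nearly doubled in both sets, Cpt1a was lower in both and was called lower in the 12-library set, and the other genes lay below the fold cutoff. In the 6-library set, 2 of the 9 genes were called (26.8% of all genes were), both of them higher (12.5% of all genes). In the 12-library set, 3 were called (25.5% of all genes), 2 higher (10.8%) and 1 lower (14.7%). Hadh and Etfdh were higher past both cutoffs in both sets, as were 6.87% of all genes. The median log2FC of the 9 genes was 0.12 in the 6-library set and 0.17 in the 12-library set, and the medians of all genes were −0.0038 and −0.00014. The groups with and without MYC did not overlap for 7 of the 9 genes in the 6-library set (78.8% of all genes) and for 6 in the 12-library set (70.5%).

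**Figure D1:**
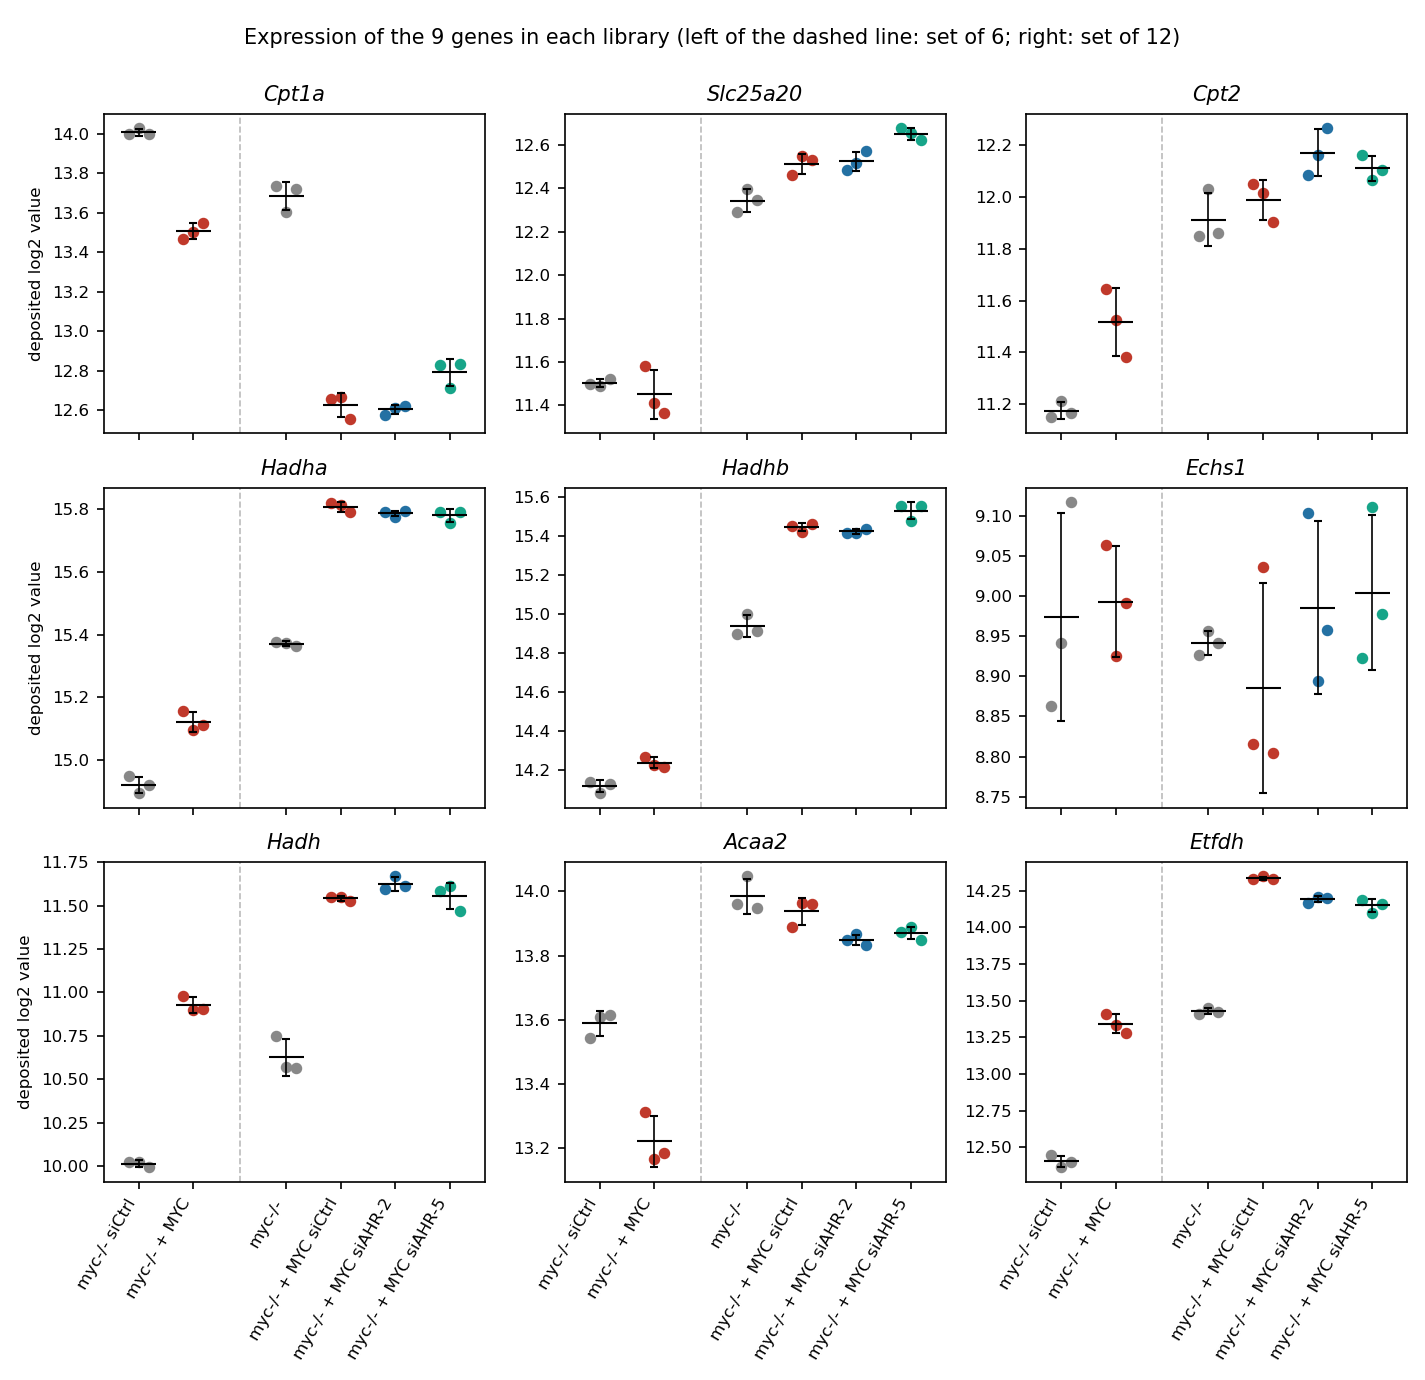
Deposited log2 value (y axis) of each of the 9 genes in each of the 18 libraries (points), with group means (lines) and SD (bars, n = 3) and a dashed line between the 6-library set and the 12-library set, which are not on the same scale. Hadh and Etfdh sit higher, and Cpt1a lower, in each library with MYC than in each without it in the same set.

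CPT1A commits long-chain fatty acids to oxidation. Cpt1a stood at 14.00, 14.03 and 14.00 in the myc-/- siCtrl libraries and at 13.47, 13.50 and 13.55 in the myc-/- + MYC libraries. The 12-library set gave 13.73, 13.60 and 13.72 in myc-/- cells and 12.66, 12.67 and 12.56 in myc-/- + MYC siCtrl cells. Each library with MYC lay below each library without it. The log2FC was −0.50 in the 6-library set (SE of the log2FC 0.0305, limma adjusted p = 3.93e-08), short of the fold cutoff, and −1.06 in the 12-library set (SE 0.0499, limma adjusted p = 1.09e-05), which was called. The level with MYC was thus 0.707 and 0.480 times that without it. Of all genes, 16.8% and 6.63% had a lower log2FC.

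The 2 other shuttle genes did not follow Cpt1a. Cpt2, the inner-membrane transferase, was at 11.15, 11.21 and 11.17 in myc-/- siCtrl cells and at 11.64, 11.53 and 11.38 in myc-/- + MYC cells, with no overlap. Its log2FC of 0.34 (limma adjusted p = 2.88e-04, 95% interval 0.21 to 0.47) lay under the fold cutoff, and the value in the 12-library set was 0.08 (95% interval −0.09 to 0.24, limma adjusted p = 0.354), where the groups overlapped. The carrier gene Slc25a20 had a log2FC of −0.05 in the 6-library set (95% interval −0.17 to 0.07, limma adjusted p = 0.389). In the 12-library set it ranged from 12.29 to 12.40 without MYC and from 12.46 to 12.55 with it, a log2FC of 0.17 (95% interval 0.06 to 0.27, limma adjusted p = 0.0134). These intervals leave out a change of the size of the fold cutoff in either direction for both genes.

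Both genes of the trifunctional protein were higher with MYC in each set, by less than the fold cutoff. Hadha stood at 14.95, 14.89 and 14.92 in myc-/- siCtrl cells and at 15.16, 15.10 and 15.11 in myc-/- + MYC cells, a log2FC of 0.20 (SE 0.0289, limma adjusted p = 6.31e-05). The 12-library set gave 15.38, 15.37 and 15.36 without MYC and 15.82, 15.81 and 15.79 with it, a log2FC of 0.44 (SE 0.0233, limma adjusted p = 1.75e-05). The groups did not overlap, and the libraries within a group lay close together. Hadhb had values of 14.14, 14.08 and 14.13 in myc-/- siCtrl cells and of 14.27, 14.23 and 14.21 in myc-/- + MYC cells (log2FC 0.12, limma adjusted p = 0.00306). Its values in the 12-library set were 14.90, 15.00 and 14.91 without MYC and 15.45, 15.42 and 15.46 with it (log2FC 0.51, limma adjusted p = 5.54e-05). After quantile normalization the values of the 12-library set were 0.62 for Hadha and 0.69 for Hadhb, past the fold cutoff, so that 5 of the 9 genes were called there. Over all genes that scaling gave 1796 higher and 1660 lower calls in this set, against 1425 and 1936 in the values as deposited.

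Of the soluble matrix enzymes, HADH oxidizes medium- and short-chain hydroxyacyl-CoA. Hadh had values of 10.03, 10.02 and 9.99 in myc-/- siCtrl cells and of 10.98, 10.90 and 10.91 in myc-/- + MYC cells. The values in the 12-library set were 10.75, 10.57 and 10.56 in myc-/- cells and 11.55, 11.55 and 11.53 in myc-/- + MYC siCtrl cells. No library with MYC came near a library without it. Hadh rose with a log2FC of 0.91 in each set (SE 0.0458 and 0.0605, limma adjusted p = 7.50e-09 and 4.32e-05), a 1.88-fold rise in both.

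ACAA2 is the thiolase that ends the cycle for medium chains. Acaa2 was at 13.54, 13.61 and 13.61 in myc-/- siCtrl cells and at 13.31, 13.17 and 13.19 in myc-/- + MYC cells, without overlap. The log2FC was −0.37 (95% interval −0.46 to −0.28, limma adjusted p = 8.26e-06), which lies inside the fold cutoff. The groups of the 12-library set overlapped, and the log2FC was −0.05 (95% interval −0.14 to 0.05, limma adjusted p = 0.343). Echs1, which encodes the short-chain enoyl-CoA hydratase, overlapped between the groups of both sets. It ranged from 8.86 to 9.12 in myc-/- siCtrl cells and from 8.92 to 9.06 in myc-/- + MYC cells. The log2FC were 0.02 (95% interval −0.14 to 0.18) and −0.06 (95% interval −0.24 to 0.13) and leave out a change of the size of the fold cutoff.

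ETFDH is where electrons from the dehydrogenases join the respiratory chain, and Etfdh rose the most of the 9 genes in the 6-library set. Its values were 12.45, 12.37 and 12.40 in myc-/- siCtrl cells and 13.41, 13.33 and 13.28 in myc-/- + MYC cells. Within the 12-library set they were 13.41, 13.45 and 13.42 in myc-/- cells and 14.33, 14.35 and 14.33 in myc-/- + MYC siCtrl cells. The groups were far apart compared with the spread within them. The log2FC was 0.94 (SE 0.0393, limma adjusted p = 1.67e-09) and 0.91 (SE 0.0241, limma adjusted p = 1.30e-06), a 1.92-fold and a 1.87-fold rise. The log2FC exceeded that of 94.5% and 95.3% of all genes.

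**Figure D2:**
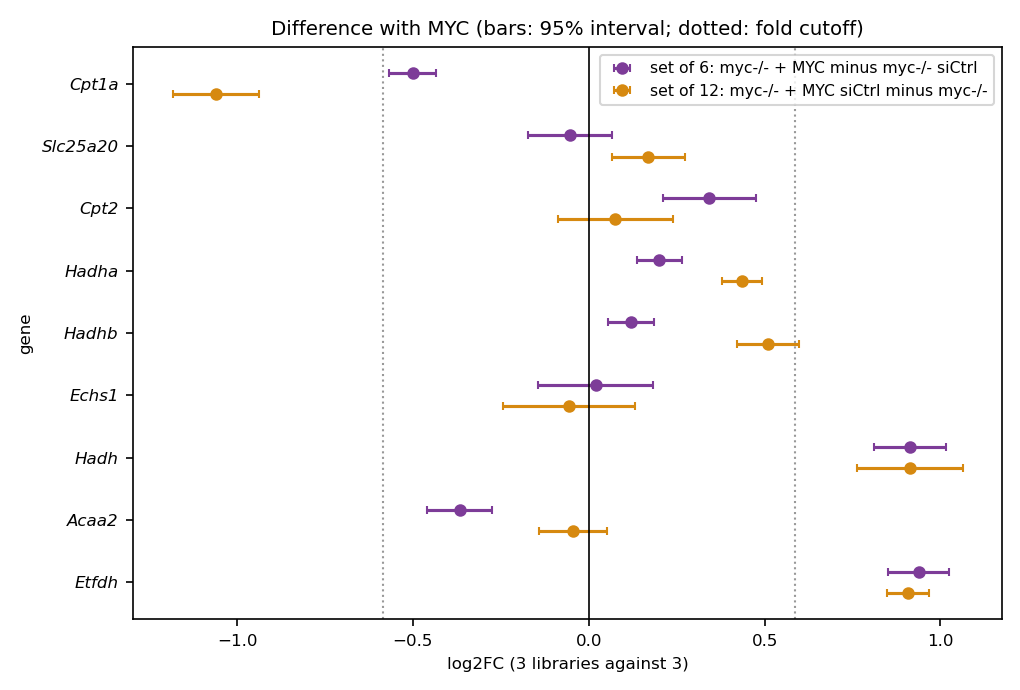
Difference in deposited log2 value with MYC (x axis, log2FC, 3 libraries against 3) for each of the 9 genes (y axis). Violet points are the 6-library set, orange points the 12-library set, bars are 95% intervals from limma and dotted lines mark a 1.5-fold difference in either direction. Hadh lies at 0.91 and Etfdh at 0.94 and 0.91, and Cpt1a at −0.50 and −1.06.

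The MYC effects of the sets were compared in 1 fit of 12 libraries. Of the 9 genes, 0 differed past both cutoffs (16.5% of all genes did), while 6 differed at an adjusted p below 0.05 without a fold cutoff, as did 54.9% of all genes, and 6 had an unadjusted p under 0.05 by limma, as did 59.6% of all genes. Cpt1a was 0.56 more negative in the 12-library set (SE 0.0613, limma adjusted p = 2.16e-06), the widest difference among the 9. Hadhb was more positive by 0.39 (limma adjusted p = 1.37e-05). For Hadh and Etfdh the differences were −0.00019 (95% interval −0.17 to 0.17) and −0.03 (95% interval −0.15 to 0.09). The transfection label runs opposite to MYC in the 6-library set and along with it in the 12-library set, so a difference in transfection and a difference in normalization cannot be told apart from a difference in the MYC effect.

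Markers of fibroblasts and of other cell types were counted beside these results. Of 11 fibroblast markers, 5 fell with MYC in the 6-library set (14.3% of all genes) and 1 rose (Col3a1, from a mean of 15.69 to 16.99), while 7 fell and 0 rose in the 12-library set (14.7% of all genes fell). Their summed level, on the log2 scale, went from between 20.82 and 20.84 to between 19.90 and 19.99 in the 6-library set, and from between 21.95 and 22.18 to between 20.23 and 20.25 in the 12-library set. The 2 muscle markers in the table, Ckm and Myh1, also fell, with summed levels from 11.11 to 11.16 without MYC and from 8.54 to 8.64 with it in the 6-library set, and from 8.78 to 8.84 and from 7.73 to 7.97 in the 12-library set. Of markers of other cell types, the epithelial Epcam and the leukocyte Itgam had means below 3 in all groups, a value that does not by itself show absence. Others were higher. The hepatocyte Cyp2e1 and the leukocyte Cd3e had means of 9.98 and 9.34 in myc-/- siCtrl cells. The endothelial Tek had 9.10 in myc-/- + MYC siCtrl cells, and the epithelial Krt8 had 8.92 with siAHR-2. In both sets 1 of 4 leukocyte and 1 of 2 hepatocyte markers fell and 1 of 4 epithelial markers rose. Of 4 endothelial markers, Tek rose in the 6-library set (1.61) and had 0.38 in the 12-library set. The part of these shifts in the level of Cpt1a, Hadh or Etfdh was not tested. In such bulk libraries fewer cells of a kind and less RNA per cell cannot be told apart.

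AHR is a ligand-activated transcription factor whose mRNA was higher with MYC in these cells, by 0.52 in the 6-library set and by 1.40 in the 12-library set. Knockdown of AHR in myc-/- + MYC cells left all 9 genes within the fold cutoff. Past both cutoffs, 0 of the 9 genes were called with siAHR-2 (0.47% of all genes) and 0 with siAHR-5 (2.32% of all genes), and 4 and 6 genes had an unadjusted p under 0.05 by limma (40.4% and 47.8% of all genes). The groups did not overlap for 4 genes with siAHR-2 (43.3% of all genes) and for 6 with siAHR-5 (50.5%). The same 3 siCtrl libraries served both comparisons, so their values are not independent.

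Etfdh was the gene of the 9 that lay lowest relative to siCtrl with each siRNA. From 14.33, 14.35 and 14.33 with siCtrl it went to 14.17, 14.21 and 14.20 with siAHR-2 and to 14.18, 14.10 and 14.16 with siAHR-5. No library with either siRNA reached the siCtrl libraries, and all remained above the myc-/- libraries, whose highest was 13.45. The log2FC was −0.14 with siAHR-2 (SE 0.0164, limma adjusted p = 0.00306) and −0.19 with siAHR-5 (SE 0.0257, limma adjusted p = 0.00346), a level of 0.906 and 0.879 times that of siCtrl. Both are well short of the fold cutoff. With the replicate numbers as a block the limma adjusted p were 0.0199 and 0.0175, the highest over 13 alternatives for each siRNA, of which the lowest were 6.92e-04 and 2.55e-04.

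Cpt1a, Slc25a20 and Hadhb had values with siAHR-5 that siAHR-2 did not give. Cpt1a lay at 12.66, 12.67 and 12.56 with siCtrl, at 12.58, 12.61 and 12.62 with siAHR-2 and at 12.83, 12.71 and 12.83 with siAHR-5. The siAHR-2 libraries overlapped siCtrl and the siAHR-5 libraries did not. Its log2FC was −0.02 with siAHR-2 (95% interval −0.11 to 0.07) and 0.17 with siAHR-5 (95% interval 0.05 to 0.29, limma adjusted p = 0.0423). Slc25a20 had a log2FC of 0.01 and 0.14, and Hadhb of −0.02 and 0.08 (limma adjusted p = 0.0611 with siAHR-5). Library medians ran from 11.61 to 11.62 with siCtrl and from 11.67 to 11.68 with siAHR-5, an offset not removed from these log2FC. Between the siRNAs, 0 of the 9 genes differed past both cutoffs (2.18% of all genes), and 3 had an unadjusted p under 0.05 by limma (46.8% of all genes). Of these, Cpt1a (0.19), Slc25a20 (0.13) and Hadhb (0.11) differed at an adjusted p below 0.05 (limma, 0.0134, 0.0196 and 0.0205), as did 39.1% of all genes. Of the 11 fibroblast markers, 2 were called higher with siAHR-5 than with siAHR-2 (Pdgfrb by 0.64 and Thy1 by 0.67) and 0 lower. The log2FC of the 11 ran from −0.18 to 0.67, and 6 were positive. Their summed level ranged from 19.99 to 20.03 with siAHR-2 and from 19.96 to 19.97 with siAHR-5. The sum was taken off the log scale, so Vim and Fn1 (means of 19.09 and 18.54 with siAHR-2) weigh most in it. The part of these markers in the values of Cpt1a was not tested.

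The remaining genes lay within the fold cutoff with both siRNAs. Cpt2 had the largest log2FC in size of the 9 genes with siAHR-2, 0.18 (95% interval 0.03 to 0.33, limma adjusted p = 0.0777), and 0.12 with siAHR-5 (limma adjusted p = 0.103). Its values went from 12.05, 12.01 and 11.90 with siCtrl to 12.09, 12.16 and 12.27 with siAHR-2 and to 12.16, 12.07 and 12.10 with siAHR-5, so that neither siRNA overlapped siCtrl. Hadha had a log2FC of −0.02 with siAHR-2 (95% interval −0.05 to 0.01) and −0.03 with siAHR-5 (95% interval −0.07 to 0.02). Acaa2, at 13.89 to 13.96 with siCtrl, was at 13.83 to 13.87 with siAHR-2 and at 13.85 to 13.89 with siAHR-5, with log2FC of −0.09 and −0.07. Acaa2 did not overlap with siCtrl in either comparison, although the gap to the siAHR-5 libraries was small. Hadh had log2FC of 0.08 and 0.01, and its siAHR-2 libraries did not overlap siCtrl while its siAHR-5 libraries did. Echs1 had 0.10 and 0.12, with 95% intervals of −0.12 to 0.32 and −0.10 to 0.33.

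**Figure D3:**
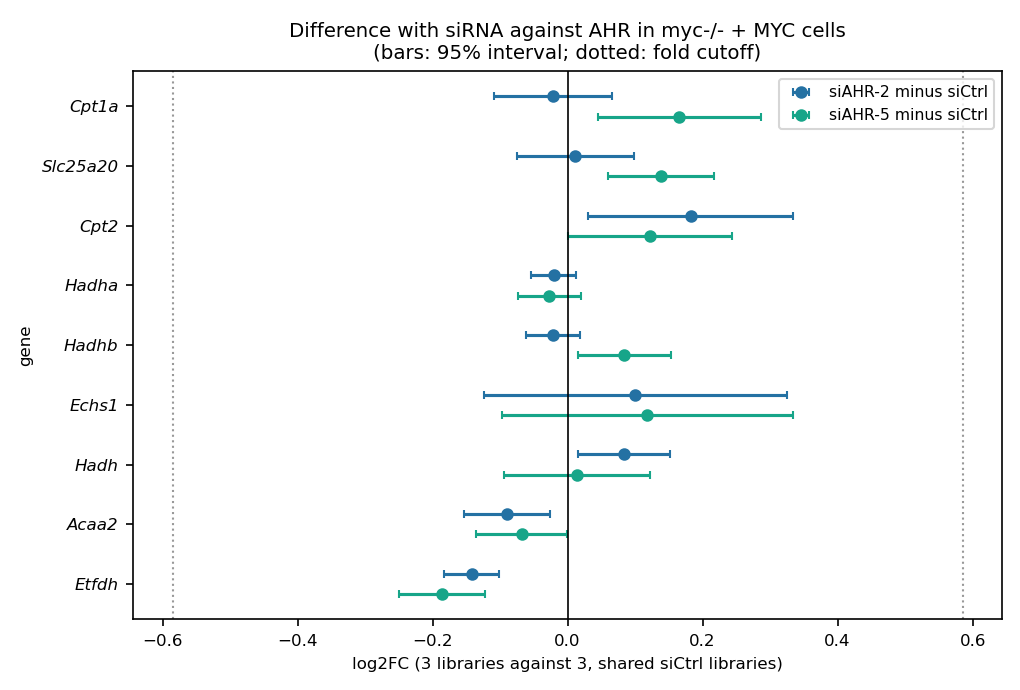
Difference in deposited log2 value between myc-/- + MYC cells with siAHR-2 (blue) or siAHR-5 (green) and with siCtrl (x axis, log2FC, 3 libraries against the same 3), for each of the 9 genes (y axis). Bars are 95% intervals from limma and dotted lines mark a 1.5-fold difference in either direction. All points lie between −0.19 and 0.18, inside the dotted lines.

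At the FDR below 5% of the study's methods, with no fold cutoff, 7 of the 9 genes differed with MYC in the 6-library set (76.2% of all genes) and 6 in the 12-library set (64.7%). With siAHR-2 these were 2 genes, Acaa2 and Etfdh (29.3% of all genes), and with siAHR-5 3 genes, Cpt1a, Slc25a20 and Etfdh (39.2%). 

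Within the 12-library set the order of the group means differed between genes. Hadh was lowest in myc-/- cells (10.63), and its means in the 3 MYC-expressing groups lay between 11.54 and 11.62. Cpt1a was highest in myc-/- cells (13.69), followed by siAHR-5 (12.79), siCtrl (12.63) and siAHR-2 (12.60), and the last 2 did not differ beyond their spread. Etfdh ran from myc-/- (13.43) over siAHR-5 (14.15) and siAHR-2 (14.19), which overlapped, to siCtrl (14.34).

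The genes were also compared by the likeness of their patterns, as Pearson correlation over the 18 libraries after centring each set on its mean. This is a description, since the libraries of a set share groups and scale. Hadh and Etfdh were the most alike of the 9 (r = 0.971), and Etfdh ranked 293 among the 13187 other genes by likeness to Hadh. The neighbours Hadha and Hadhb came next (r = 0.956), with Hadha at rank 89 for Hadhb. Cpt1a ran against Hadha (r = −0.979), Hadh (−0.939), Hadhb (−0.919) and Etfdh (−0.914). Across the whole table, the gene most like Cpt1a was Pdgfrb, a receptor of mesenchymal cells (r = 0.994), that most like Hadha was Emb (0.996), and that most like Hadhb was Prrg4 (0.983). The gene most like Hadh was Tmem184b (0.993), and for Etfdh it was Ccbl2 (0.995). For Slc25a20, Cpt2 and Acaa2 these were Ppm1d (0.921), Tmem53 (0.941) and Serpina3n (0.950), while Echs1 had no gene above Ednrb (0.760).

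The other genes of fatty acid oxidation were counted in lists. Of 7 acyl-CoA dehydrogenases, 2 rose with MYC in the 6-library set and 0 fell (12.5% and 14.3% of all genes), and 3 rose and 0 fell in the 12-library set (10.8% and 14.7%). Acadm, the medium-chain enzyme, rose in both (log2FC 0.72 and 0.73, limma adjusted p = 3.66e-08 and 2.41e-05), as did Acad10 (1.94 and 0.85). Acad9 rose in the 12-library set (0.72) and had 0.22 in the 6-library set. Of the genes of the electron-transferring flavoprotein that feeds ETFDH, Etfb rose in the 6-library set (0.78) and had 0.43 in the 12-library set, whereas Etfa had 0.38 and −0.05.

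Of 9 auxiliary matrix enzymes in the table, 4 rose and 1 fell in the 6-library set (12.5% and 14.3% of all genes), and 2 rose and 1 fell in the 12-library set (10.8% and 14.7%). Acat1, the mitochondrial acetoacetyl-CoA thiolase (1.56 and 0.89), and Pcca, a subunit of the propionyl-CoA carboxylase that takes up odd-chain ends (1.43 and 1.33), rose in both sets, and Pccb rose in the 6-library set (0.79). Hsd17b10, a multifunctional short-chain dehydrogenase, fell in both (−0.84 and −1.23). Of the ketone body enzymes, Bdh1 rose in both sets (1.63 and 0.84), and Oxct1, which returns ketone bodies to coenzyme A, rose in the 12-library set (1.44). In the 6-library set Oxct1 had a log2FC of 0.41, and 0.60 after quantile normalization, past the fold cutoff.

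The genes around the shuttle were counted in the same way, and most of them were not called in either set. Of 6 other carnitine genes, 1 rose and 1 fell in the 6-library set (12.5% and 14.3% of all genes), and 0 rose and 1 fell in the 12-library set (10.8% and 14.7%). Crat, the short-chain carnitine acetyltransferase, fell in both (−0.99 and −0.76), and Cpt1c, the brain-type relative of CPT1A, rose in the 6-library set (1.35) and had 0.43 in the 12-library set. Of 10 genes of uptake and activation, beside the same shares of all genes, 1 rose and 2 fell in the 6-library set, and 0 rose and 1 fell in the 12-library set. The transporter gene Slc27a4 fell in both (−0.86 and −0.93), and Acsl5 fell (−0.96) and Fabp4 rose (0.70) in the 6-library set. In the 12-library set Acsl5 had −0.18 and Fabp4 0.14, and neither was called. Of the peroxisomal genes, Scp2 fell in the 12-library set (−0.78) and had −0.41 in the 6-library set, and Decr2 rose in the 6-library set by 0.59, which was short of the fold cutoff after quantile normalization (0.54), median centring (0.54) or a pseudocount of 1 (0.58). Decr2 was also short of it without myc-/- siCtrl replicate 2 (0.55) or 3 (0.58) and without myc-/- + MYC replicate 1 (0.50).

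Of 10 regulators, 2 rose and 1 fell in the 6-library set (12.5% and 14.3% of all genes) and in the 12-library set (10.8% and 14.7%). In the 6-library set 3 rose after quantile normalization and 1 after median centring. The coactivator gene Ppargc1a rose (0.97 and 0.72), Ppard rose in the 12-library set (1.01) and had 0.51 in the 6-library set, and Pdk4 rose by 0.59 in the 6-library set, which median centring moved to 0.55, below the fold cutoff. Without myc-/- siCtrl replicate 1 or myc-/- + MYC replicate 1 Pdk4 had 0.54 and 0.53. Ppara, the receptor that drives oxidation genes in liver, fell in both sets (−0.89 and −0.77), and its adjusted p in the 12-library set went from 0.00266 to 0.0106 with the replicate block. Leaving out any 1 of the 6 compared libraries other than myc-/- replicate 2 also took that adjusted p past 0.01, to at most 0.0149. Over all 13 alternatives it ranged from 9.95e-08 to 0.0149. With siAHR-2, 0 of the 59 genes of these lists were called by limma (0.47% of all genes), and 36 had an unadjusted p under 0.05 (40.4% of all genes). With siAHR-5, 3 were called (2.32% of all genes), against 5 after median centring and 2 after quantile normalization. Of the 3, Cpt1c rose (0.92), and Scp2 (−0.66) and Acaca, which makes the CPT1 inhibitor malonyl-CoA, fell (−0.62). Acaca was named after its values were seen. It had −0.57 after quantile normalization and −0.57 without siAHR-5 replicate 2, both short of the fold cutoff. Between the siRNAs, 3 of the 59 genes differed past both cutoffs (2.18% of all genes). With siAHR-5 as against siAHR-2, Cpt1c was higher by 0.62, and Scp2 (−0.68) and Acadm (−0.64) were lower. With the replicate block 2 of the 59 genes were called there and Cpt1c was not. For Acadm, the log2FC against siCtrl were 0.09 with siAHR-2 and −0.55 with siAHR-5, which median centring moved to −0.61, past the fold cutoff.

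**Figure D4:**
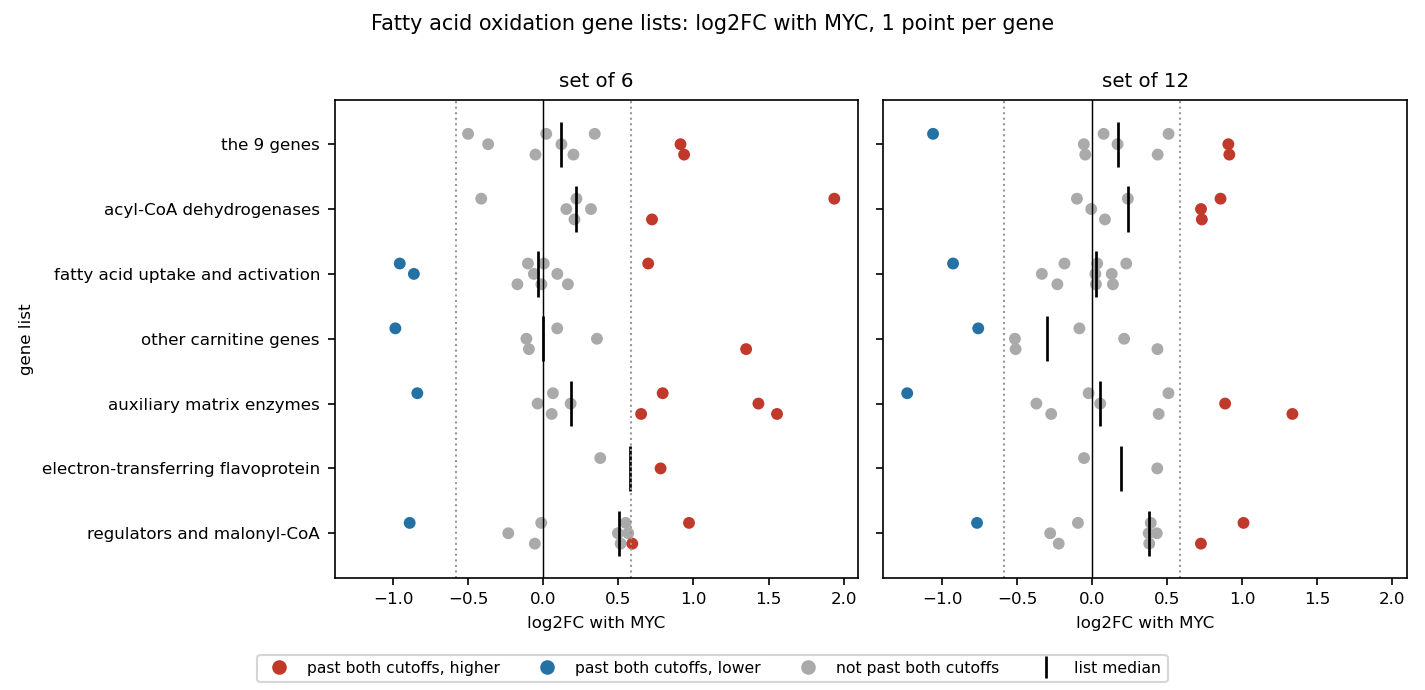
Difference in deposited log2 value with MYC (x axis, log2FC) for each gene of 7 lists (y axis), in the 6-library set (left) and the 12-library set (right). Points are genes, red and blue those past both cutoffs, black ticks are list medians and dotted lines mark a 1.5-fold difference in either direction. The 9 genes have list medians of 0.12 and 0.17.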

How the data were processed

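RNA-seq libraries had been made from poly-A RNA. According to the methods and the submitters' processing notes, read quality was assessed with the NGS-QC-Toolkit, alignment to rn6 used HISAT2 2.1.0, genes with under 10 reads in total were removed, and DESeq2 served for normalization by the authors. What counted the reads, and on which annotation, is not given in the sources used here. The authors deposited log2 values per library. They are not CPM, because off the log scale the libraries sum to 86.3 to 161 times the total of a CPM table, and the transformation is not stated. How far it compresses low values was not tested. No counts can be recovered, so depth and its precision are unknown.

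Groups and replicate numbers came from the sample titles, and columns from the sample descriptions. Tests used limma 3.58.1 in R 4.3.3 (lmFit, eBayes with trend) on the deposited values, with Benjamini-Hochberg adjustment over all 13188 genes and only the compared groups in a fit. The fits were tested on simulated data. The members and lists were chosen with earlier results of these data known. Named pathway genes are up to 4 per list, by size of log2FC among those called with MYC. Fabp5, Mut and Prkaa2 were not analysed here. Some called genes of the peroxisomal and ketone body lists are not reported here. Promoters were taken from a RefSeq table of GRCr8, another assembly than rn6. For the plots, Python 3.11.15 and matplotlib 3.10.9 were used.

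The alternatives were an adjusted p below 0.05 without a fold cutoff, all 18 libraries in 1 fit, no trend, quantile normalization, median centring, a pseudocount of 1, dropping genes with mean values under 1, the replicate block and leaving out each library.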

Additional observations from a re-analysis of the deposited data

Results flagged for a closer look

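The effect of MYC differed between the 12-library set and the 6-library set, by a limma test of the difference at an adjusted p below 0.05, for 6 of the 9 genes, as it did for 54.9% of all genes. The differences in log2FC (12-library set minus 6-library set) were −0.56 for Cpt1a, 0.22 for Slc25a20, −0.27 for Cpt2, 0.24 for Hadha, 0.39 for Hadhb and 0.32 for Acaa2. The adjusted p lay between 2.16e-06 (Cpt1a) and 0.0275 (Cpt2). None of the 6 reached the fold cutoff as reported, and Cpt1a came closest. For Slc25a20, Cpt2 and Acaa2 the MYC effect lay further from 0 in 1 of the sets, and that of Slc25a20 had opposite signs in them (−0.05 and 0.17). After median centring the difference for Cpt2 was −0.18 (limma adjusted p = 0.107, the highest of 19 alternatives, of which the lowest was 0.00657), and the other 5 kept an adjusted p of at most 0.00289. Transfection label and normalization differ between the sets in the same way and cannot be told apart from a difference in the MYC effect.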

How the results depend on the processing

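Hadh and Etfdh with MYC in both sets, and Cpt1a in the 12-library set, kept their direction and their call in each alternative run. Without a fold cutoff, at an adjusted p below 0.05, the genes called of the 9 were 7 and 6 with MYC in the 6- and 12-library sets, 2 with siAHR-2, 3 with siAHR-5, 3 between the siRNAs and 6 for the difference between the MYC effects. Quantile normalization gave 5 with MYC in the 12-library set, where Hadha and Hadhb passed, and 1 for the difference between the MYC effects (Cpt1a, −0.65). Leaving out 1 library gave 0 to 1 for that difference (1 without myc-/- replicate 2, where Cpt1a had −0.60), and 2, 3, 0, 0 and 0 in the other comparisons. Changes of sign were found only for log2FC inside the fold cutoff. Among them was Acsl5 with MYC in the 12-library set, at −0.18 in the values as deposited (limma adjusted p = 0.00113). With MYC, Echs1 moved to −0.0233 in the 6-library set with median centring and to between −0.0359 and 0.0909 with 1 library left out. In the 12-library set, quantile normalization gave 0.0569 for Echs1, 0.0397 for Acaa2, 0.0128 for Acsl5 and 0.0230 for Decr2, and Decr2 had 0.0147 with median centring and −0.0559 to 0.0223 with 1 library left out. With siAHR-2, quantile normalization gave −0.00854 for Slc25a20, 0.0555 for Hadha and 0.0376 for Hadhb, and Slc25a20 had −0.0197 with median centring and −0.0152 to 0.0310 with 1 library left out. With siAHR-5, quantile normalization gave 0.0623 for Hadha, −0.0506 for Echs1 and −0.0451 for Hadh, and Hadh had −0.0462 with median centring and −0.0146 to 0.0563 with 1 library left out. Between the siRNAs, quantile normalization gave 0.0136 for Hadha and −0.0605 for Echs1, median centring −0.0106 for Echs1 and −0.00692 for Acaa2, and leaving out 1 library −0.0125 to 0.00610 for Hadha and −0.0353 to 0.0774 for Echs1. For the difference between the MYC effects, median centring gave 0.0101 for Echs1, 0.0852 for Hadh and 0.0546 for Etfdh, a pseudocount of 1 gave 3.34e-05 for Hadh, and leaving out 1 library −0.0321 to 0.0613 for Hadh and −0.0614 to 0.00392 for Etfdh. The cause of these shifts was not tested.

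Whether the replicate numbers pair the libraries is not known. The correlations of same-numbered deviations ran from −0.256 to 0.242. Libraries with different numbers were not compared in this way, so these values cannot exclude a pairing. With the replicate block 2, 3, 0, 0, 0 and 0 of the 9 genes were called in the 6 comparisons, as without it. Over all genes the block took the calls with siAHR-2 from 62 to 0 (limma), with 5030 genes at an unadjusted p under 0.05. For Etfdh the limma adjusted p with the block was 0.0199 with siAHR-2 and 0.0175 with siAHR-5. With 3 libraries a group and unknown depth, differences inside the intervals given are not resolved. The counts of the pathway lists and the alternatives for named pathway genes were added after the data were seen.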
